A study of Mus musculus with 11 samples.

Results

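The genes of cholesterol and fatty acid synthesis were followed in cultured KP1 cells, a mouse small cell lung cancer line, with and without radiation. The set is a list of 30 genes of the SREBP (sterol regulatory element-binding protein) pathway and is given by name. All 30 were found among the 35056 genes that had a transcript in the files, and all 30 were among the 14106 genes that passed edgeR's filter on low counts. The list holds 7 genes of the mevalonate steps, 11 genes from squalene to cholesterol, 5 genes of the SREBP machinery, 1 sterol carrier and 6 genes of fatty acid synthesis.

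The study combined radiation with blockade of CD47, a surface protein that keeps macrophages from engulfing cells, and bulk RNA sequencing recorded irradiated cancer cells in culture without that blockade. There were 2 control libraries from untreated KP1 cells (replicates 2 and 3) and 3 libraries from cells that had received 5 Gy (replicates 1, 2 and 3), collected at 24 h. All 5 cultures were of 1 cell line with mutant *Rb* and *p53*, grown in RPMI-1640 medium. The labels name bovine growth serum and the study's methods name fetal bovine serum, so the kind of serum is uncertain. Whether the replicates were separate cultures, passages or days is not stated, so each p below measures the spread between these libraries alone, which may be technical.

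Cells make cholesterol from acetyl-CoA through mevalonate, farnesyl diphosphate, squalene and lanosterol, and they make fatty acids from the same acetyl-CoA through malonyl-CoA. The SREBP transcription factors start as membrane proteins of the endoplasmic reticulum, where the escort protein Scap binds them and the Insig proteins hold Scap in place while sterols are plentiful. When sterols run low, Scap carries the SREBPs to the Golgi, proteases release the part that enters the nucleus, and that part binds sterol regulatory elements. SREBP-2 acts mainly on cholesterol genes, SREBP-1c mainly on fatty acid genes and SREBP-1a on both. Cultured cells also take up cholesterol and fatty acids from serum, and an ample supply lowers their own synthesis.

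The 10 neuroendocrine markers of small cell lung cancer fixed for the check all exceeded 1 TPM (Salmon's abundance per transcript length, scaled to the same total in each library) in all 5 libraries. Their summed level was 2729 and 2883 TPM in control replicates 2 and 3 and 2863, 2861 and 2683 TPM in irradiated replicates 1, 2 and 3. Among the 10 markers *Ncam1*, *Uchl1*, *Syp* and *Calca* passed the test described below, with log2 fold changes of −1.20, 1.14, 0.64 and 1.18. Of the 10, 3 were thus higher and 1 lower, against 12.7% and 13% of all genes tested. With the length offset described below 0 of the 10 passed by edgeR (against 1.75% and 2.16% of all genes), with 4 at an unadjusted p under 0.05 (against 27%).

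Fat cells and liver cells express many lipid synthesis genes strongly, so their markers were read as well. The 8 adipocyte and hepatocyte markers summed to 0.830 and 0.248 TPM in the controls and to 0.471, 0.270 and 0.128 TPM in the irradiated libraries. *Plin1*, the highest of them on average, had 0.830 and 0.168 TPM in the controls and 0.0953, 0.237 and 0.0701 TPM after irradiation, so it made up the smaller part in irradiated replicate 1. The 8 leukocyte and macrophage markers summed to 4.55 and 7.51 TPM in the controls and to 4.31, 2.39 and 2.79 TPM after irradiation. *Cd68* made up most of this in the controls, at 4.05 and 6.62 TPM, and the smaller part in the irradiated libraries, at 1.60, 0.992 and 1.35 TPM. The 5 endothelial markers summed to 11.7 and 14.4 against 7.80, 7.89 and 10.9 TPM, mostly from *Tek*. The 7 fibroblast markers summed to 67.5 and 57.2 against 37.0, 51.9 and 47.1 TPM, mostly from *Pdgfra*, and *Col3a1* was at 0. The 6 alveolar and airway markers summed to 17.8 and 29.1 TPM in the controls and to 49.3, 40.5 and 39.5 TPM in the irradiated libraries, mostly from *Epcam*. Of the 4 tested markers of this list *Epcam* and *Sftpc* passed as higher by edgeR, with log2 fold changes of 1.34 and 1.72 (adjusted p = 0.018 and 0.0276), against 12.7% of all genes. Under the length offset 0 passed, with 2 at an unadjusted p under 0.05 (against 27% of all genes). Of the other lists 1 of 8 adipocyte and hepatocyte, 2 of 8 leukocyte and macrophage, 3 of 5 endothelial and 3 of 7 fibroblast markers had enough reads to be tested, and 0 of these passed. The part of these signals in the results was not tested. In a bulk library, fewer cells of a kind and less RNA in each cell cannot be told apart.

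The libraries held 31036317 and 26432466 estimated reads in the controls and 24469945, 21185956 and 27243557 in the irradiated cells. Their reads came from transcripts of differing length. Weighted by reads, the mean transcript was 5463 and 4729 bases long in control replicates 2 and 3 and 3715, 3625 and 3998 bases long in irradiated replicates 1, 2 and 3. The controls were thus the libraries with the longest transcripts, and the trend cannot be told apart from the groups. The main results below are therefore given also with an offset that removes each library's trend with transcript length, whatever its source.

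Irradiated replicate 1 stood apart from the other irradiated libraries in these genes. Of the 30 genes, 28 (93.3%) had a lower CPM (read counts scaled for library depth by edgeR's TMM factors) in it than in the mean of irradiated replicates 2 and 3, against 51.6% of all genes tested. The median log2 ratio was −0.42 for the 30 genes and −0.01 for all genes, and −0.40 for the 30 genes once the length trend was removed. *Scd1* and *Scd2*, the desaturases that make monounsaturated fatty acids, had the lowest ratios, −2.16 and −1.37. Only 0.149% and 0.808% of all genes lay as low or lower. *Insig1*, *Hsd17b7*, *Hmgcs1* and *Srebf1* followed at −0.89, −0.78, −0.72 and −0.71. The exceptions were *Ebp* at 0.31 and *Insig2* at 0.28. *Srebf2* and *Scap* lay near 0, at −0.01 and −0.03. The 30 genes took 0.727% and 0.708% of the reads of the controls and 0.461%, 0.684% and 0.727% of those of irradiated replicates 1, 2 and 3, so the low share belonged to irradiated replicate 1. What set this library apart was not tested, and several values below are given with and without it.

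Untreated KP1 cells expressed the whole pathway. The median level of the 30 genes was 94.4 and 98.4 TPM in control replicates 2 and 3, against 21.9 and 22.5 TPM for all genes tested. *Scd2* had the highest control level, 544 ± 39.3 TPM (SD, n = 2), and lay at percentile 98.5 of all genes tested. *Fdps*, which makes farnesyl diphosphate for sterols and for prenyl anchors, had 327 ± 0.553 TPM, and *Srebf2*, which encodes SREBP-2, had 322 ± 26.4 TPM. These neighbors differed by less than the spread of *Srebf2* between the controls. Next came *Hmgcs1* (281 ± 76.2 TPM), *Fasn* (280 ± 80.4 TPM), *Acaca* (269 ± 146 TPM) and *Acly* (258 ± 49.7 TPM), whose differences in level were smaller than their SDs. At the low end were *Ebp* at 13.7 ± 5.33 TPM, *Tm7sf2* at 17.5 ± 3.04 TPM and *Hsd17b7* at 25.2 ± 1.06 TPM, 3 enzymes of the last sterol steps. *Ebp* still lay at percentile 38.9 of all genes tested. The desaturase pair was uneven, with *Scd1* at 79.6 ± 4.31 TPM. Between the factors, *Srebf1* had 75.1 ± 24.9 TPM, below *Srebf2* in each control.

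**Figure D1:**
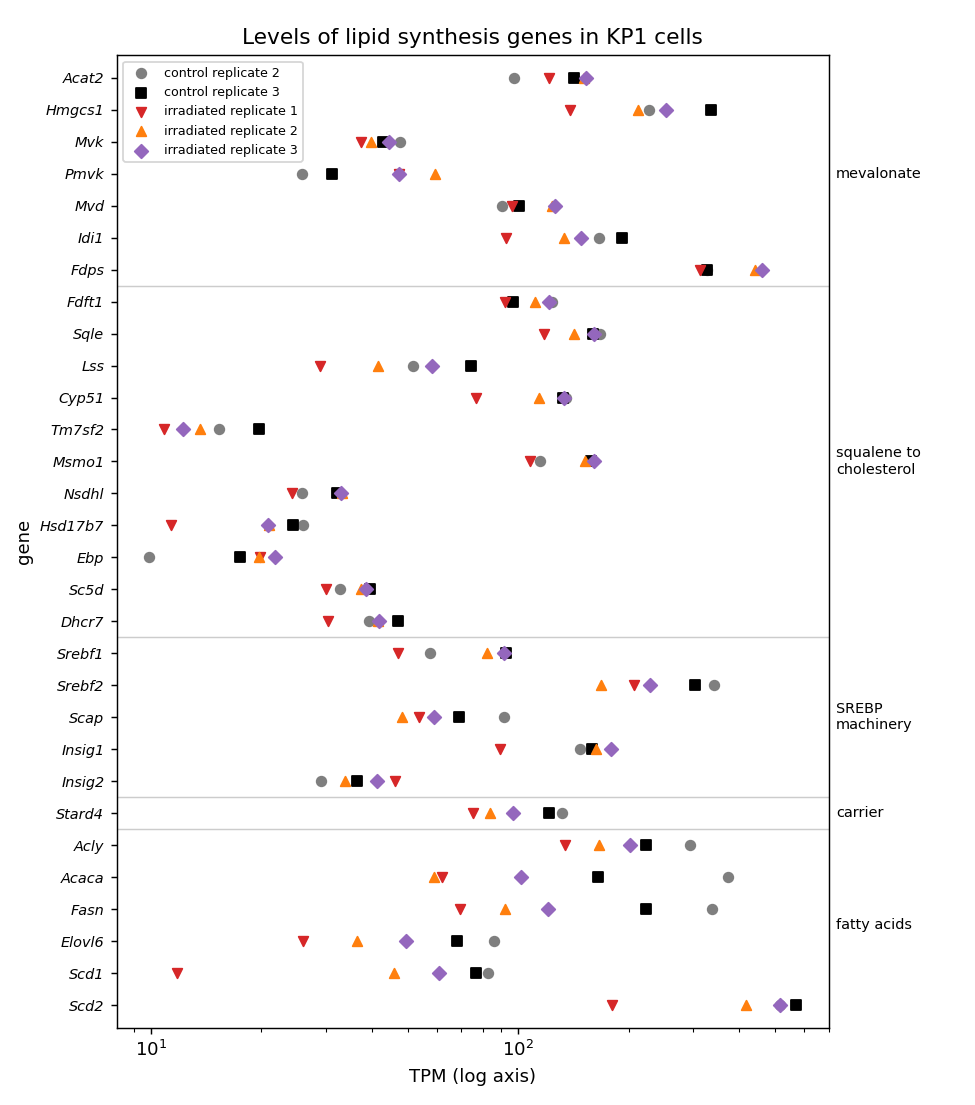
Level of each of the 30 genes in TPM on a log axis, 1 symbol for each of the 5 KP1 libraries, with genes grouped by role. Control levels ran from 13.7 TPM for Ebp to 544 TPM for Scd2 (means of 2), and irradiated replicate 1 is the leftmost symbol for many genes, most plainly for Scd1 at 11.8 TPM.

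The summed level of the 30 genes was 4205 and 4079 TPM in the controls and 2396, 3282 and 3782 TPM in irradiated replicates 1, 2 and 3. The irradiated sums all lay below both controls, with irradiated replicate 1 the lowest. In the median of the 30 genes, irradiated replicate 3 lay above both controls. That median was 94.4 and 98.4 TPM in the controls and 65.8, 82.9 and 99.1 TPM in irradiated replicates 1, 2 and 3. The median of all genes tested was 21.9 and 22.5 TPM in the controls and 17.2, 16.6 and 18.3 TPM after irradiation. TPM divides by length and rests on all transcripts of a library. The part of the length trend in the summed level was not tested.

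The comparison of irradiated with control cells asked which genes of the pathway differed at 24 h. The test was edgeR's quasi-likelihood F test, with p adjusted by Benjamini-Hochberg over the 14106 genes. It found that 3 of the 30 genes (10%) were higher in irradiated cells at an adjusted p under 0.05, against 12.7% of all genes tested. They were *Pmvk*, *Mvd* and *Insig2*. Lower were 2 of the 30 (6.67%), *Acaca* and *Fasn*, against 13% of all genes tested. Both shares lay below the background in this fit. At an unadjusted p under 0.05 it held 10 of the 30 (33.3%), against 41% of all genes. The median log2 fold change was 0.03 over the 30 genes and 0.02 over all genes, and 15 of the 30 lay above 0.

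With the transcript length offset, 0 of the 30 genes passed in either direction by edgeR, against 1.75% of all genes higher and 2.16% lower. At an unadjusted p under 0.05 this fit held 4 of the 30 (13.3%), *Pmvk*, *Tm7sf2*, *Insig2* and *Acaca*, against 27% of all genes. The median was then 0.08 over the 30 genes and 0.00 over all. Without an offset, DESeq2 called 5 of the 30 higher (16.7%, against 11.6% of its 20523 genes) and 3 lower (10%, against 10.5%). Its base is larger than the set of genes that passed edgeR's filter. The DESeq2 shares of all genes here and below are therefore not like for like with those of edgeR. Limma on log2(TPM + 1) called 1 higher (3.33%, against 4.91% of all genes) and 5 lower (16.7%, against 19%), *Srebf2*, *Stard4*, *Acaca*, *Fasn* and *Elovl6*. On that TPM scale the median of all genes shifted by −0.26, and the median of the 30 genes was −0.29 against −0.24 for all. Without irradiated replicate 1, edgeR called 3 higher (*Pmvk*, *Mvd* and *Fdps*; 10%, above the 5.95% of all genes) and 0 lower (against 6.5% of all genes), with 14 of the 30 (46.7%, against 35.6%) at an unadjusted p under 0.05 and a median of 0.16 over the 30 genes. The same fit with the length offset called 0 of the 30 and 0 of all genes, with 8 of the 30 (26.7%, against 23.7% of all genes) at an unadjusted p under 0.05. Its median was 0.21 over the 30 genes and 0.00 over all, with 22 of the 30 above 0. Without control replicate 2, which leaves a lone control assumed to vary like the irradiated libraries, edgeR called 0 of the 30, against only 0.65% of all genes higher and 1.2% lower, with 7 of the 30 (23.3%, against 26.1%) at an unadjusted p under 0.05.

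Both groups contain the replicate numbers 2 and 3. A fit with that number as a block called 1 of the 30 genes higher (3.33%, against 4.27% of all genes), *Pmvk*, and 1 lower (3.33%, against 3.5%), *Acaca*, and gave irradiated replicate 1 no weight. The difference between replicates 2 and 3 correlated at −0.196 across all genes between the groups. This value is not adjusted for transcript length, and whether equal numbers mark libraries handled together was not tested. An exact permutation of 2 against 3 libraries could not reach below 0.1 for a single gene, so each call leans on the spread shared across genes.

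All 3 irradiated libraries lay above both controls in CPM for 6 of the 30 genes (20%), *Acat2*, *Pmvk*, *Mvd*, *Fdps*, *Ebp* and *Insig2*, against 30.1% of all genes. They lay below both for 7 (23.3%), *Lss*, *Srebf2*, *Scap*, *Acaca*, *Fasn*, *Elovl6* and *Scd1*, against 29.3% of all genes. With the length trend removed from the CPM values, *Pmvk* and *Insig2* stayed above (6.67%, against 23.6% of all genes), and *Tm7sf2*, *Acaca* and *Fasn* were below (10%, against 22.9%). Groups that did not overlap were therefore no more frequent among these genes than among all genes.

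**Figure D2:**
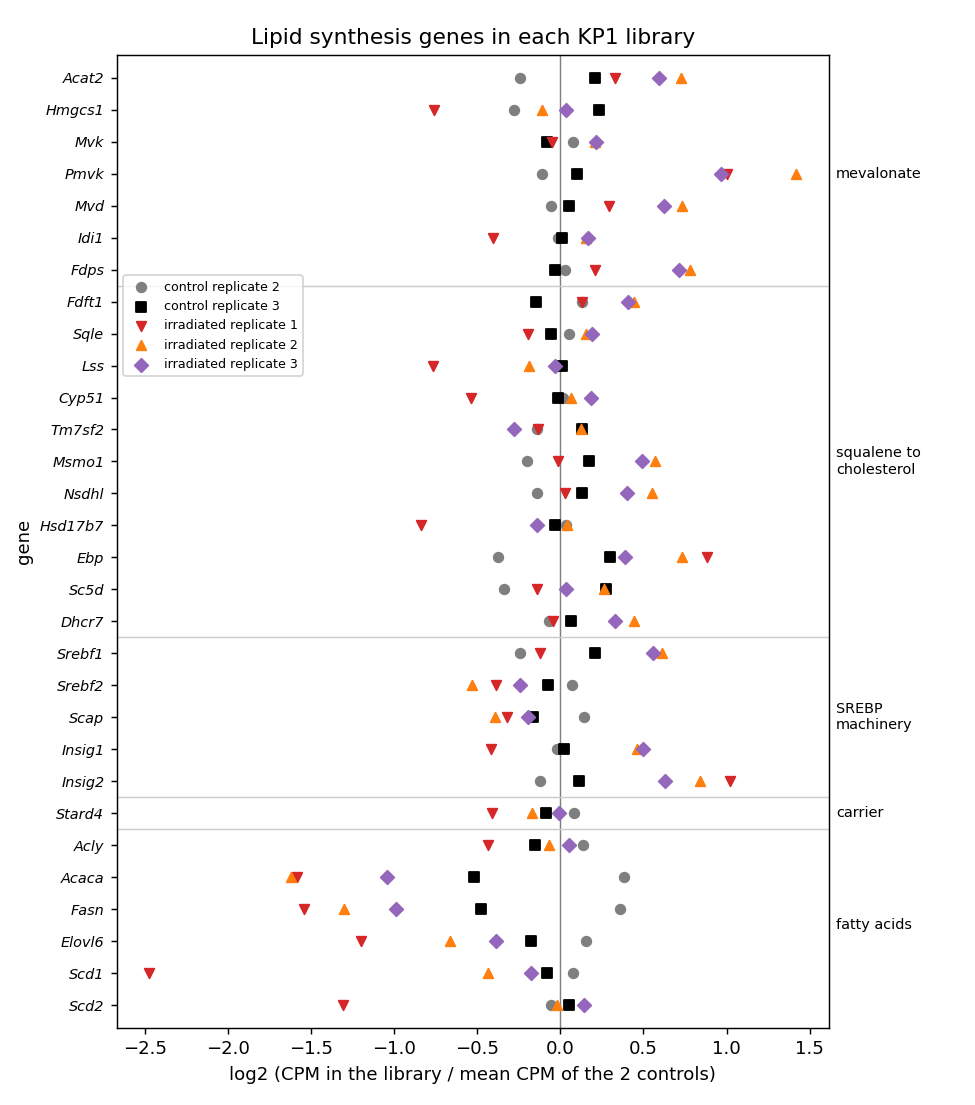
CPM of each of the 30 genes in each of the 5 KP1 libraries, as the log2 ratio to the mean of the 2 controls, with genes grouped by role. All 3 irradiated libraries lie right of both controls for 6 genes, Pmvk and Insig2 among them (20%, against 30.1% of all genes). They lie left of both for 7, Acaca and Fasn among them (23.3%, against 29.3%). Irradiated replicate 1 lies left of the other irradiated libraries for most genes.

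The mevalonate steps turn acetyl-CoA into farnesyl diphosphate. Of their 7 genes, 2 were higher (28.6%, against 12.7% of all genes) and 0 lower by edgeR, with 4 at an unadjusted p under 0.05 (against 41% of all genes). DESeq2 called *Acat2* and *Fdps* higher as well (57.1%, against 11.6% of its 20523 genes) and 0 lower. Limma on log2(TPM + 1) called *Pmvk* higher (14.3%, against 4.91% of all genes) and 0 lower (against 19%). Their median log2 fold change was 0.56, with 5 of 7 above 0, and it was −0.05 with the length offset, with 3 of 7 above 0. Leaving out each library in turn gave medians from 0.37 to 0.66. Their median transcript was 1756 bases long.

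*Pmvk* encodes phosphomevalonate kinase, which adds the next phosphate to phosphomevalonate, and lies at chr3:89454541-89469013, plus strand of GRCm38. It had 12.9 and 14.9 CPM in control replicates 2 and 3 and 27.7, 37.1 and 27.1 CPM in irradiated replicates 1, 2 and 3. Every irradiated library was above both controls, and irradiated replicate 2 was the highest. *Pmvk* rose by a log2 fold change of 1.14 (SE 0.21, adjusted p = 0.0109). It was 0.48 (SE 0.15, adjusted p = 0.103) with the length offset and 1.20 (adjusted p = 0.0318) with the replicate block. *Pmvk* has the shortest transcripts of the 30 genes, with a mean of 1190.0 bases. Without control replicate 2 its log2 fold change was 1.06 (adjusted p = 0.0631), and without irradiated replicate 1 it was 1.21 (adjusted p = 0.0377). Salmon gave a mean of 89.1% of the gene's TPM to the transcript Pmvk-201 in the controls and 97.2% in irradiated cells.

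*Mvd* encodes the decarboxylase that follows, which forms isopentenyl diphosphate, and lies at chr8:122433601-122443422, minus strand. It had 73.3 and 78.8 CPM in the controls and 93.0, 126 and 117 CPM in the irradiated libraries. The groups did not overlap, and irradiated replicate 1 was the nearest to the controls. *Mvd* rose by a log2 fold change of 0.56 (SE 0.17, adjusted p = 0.0456), just inside the threshold. With the length offset it was 0.12 (SE 0.15, adjusted p = 0.656), with the GC content offset 0.23 (adjusted p = 0.331) and with the replicate block 0.68 (adjusted p = 0.139). Leaving out control replicate 2, control replicate 3, irradiated replicate 2 or irradiated replicate 3 gave 0.53, 0.63, 0.47 and 0.53, none past the threshold, while leaving out irradiated replicate 1 gave 0.68 (adjusted p = 0.0441).

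*Fdps* had 173 and 166 CPM in the controls and 196, 291 and 279 CPM in the irradiated libraries. The groups did not overlap, and irradiated replicates 2 and 3 stood well above the rest. *Fdps* had a log2 fold change of 0.59 (SE 0.20, adjusted p = 0.058), and it was 0.75 (adjusted p = 0.0401) without irradiated replicate 1. With the length offset it was −0.05 (SE 0.20, adjusted p = 0.9), on the other side of 0. *Acat2*, the cytosolic thiolase that opens the pathway by forming acetoacetyl-CoA, had 103 and 141 CPM in the controls and 153, 202 and 185 CPM after irradiation. All irradiated values were above the controls, although control replicate 3 was close to irradiated replicate 1. *Acat2* had a log2 fold change of 0.56 (SE 0.19, adjusted p = 0.0639), and 0.30 (SE 0.16, adjusted p = 0.269) with the length offset. It turned on the controls, with 0.37 (adjusted p = 0.29) without control replicate 2 and 0.82 (adjusted p = 0.0262) without control replicate 3.

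The other genes of this arm did not pass. *Hmgcs1*, which encodes HMG-CoA synthase, had 369 and 527 CPM in the controls and 265, 416 and 459.7 CPM in the irradiated libraries. The groups overlapped, with irradiated replicate 1 the lowest of all and control replicate 3 the highest. *Hmgcs1* had a log2 fold change of −0.24 (SE 0.26, adjusted p = 0.522), and −0.03 without irradiated replicate 1, within a range of −0.45 to 0.06 as each library was left out. *Idi1*, the isomerase of isopentenyl diphosphate, had 215 and 219 CPM in the controls and 164, 242 and 243 CPM after irradiation (adjusted p = 0.99). The controls lay between irradiated replicate 1 and the other irradiated libraries. *Mvk*, mevalonate kinase, stayed between 27.8 and 34.2 CPM in all libraries (log2 fold change 0.13, and −0.40 with the length offset, adjusted p = 0.198). A pseudogene nearly identical to *Idi1* over 684 bases, *Gm13502*, took 559 and 281 reads in the controls and 244, 226 and 426 reads in the irradiated libraries, so the split of reads between them is uncertain.

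From squalene to cholesterol, 0 of 11 genes passed in either direction by edgeR, by DESeq2 and by limma on log2(TPM + 1), with 1 at an unadjusted p under 0.05 by edgeR. Of all genes, edgeR called 12.7% higher and 13% lower, DESeq2 11.6% and 10.5% and limma 4.91% and 19%, with 41% at an unadjusted p under 0.05 by edgeR. The median log2 fold change was 0.06, with 7 of 11 above 0, and it was 0.09 with the length offset, with 9 of 11 above 0. Leaving out each library in turn gave medians from 0.01 to 0.22. Without irradiated replicate 1 the median was 0.18, with 0 of the 11 passing and 4 (*Fdft1*, *Msmo1*, *Nsdhl* and *Dhcr7*) at an unadjusted p under 0.05, against 35.6% of all genes. These enzymes close the sterol rings and then trim and reduce lanosterol.

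The first enzymes of this arm are *Fdft1*, squalene synthase, *Sqle*, squalene epoxidase, and *Lss*, which closes the rings to lanosterol. *Fdft1* had 163 and 134 CPM in the controls and 163, 202 and 197 CPM after irradiation, and *Sqle* had 229 and 212 CPM and 193, 246 and 252 CPM. In both genes irradiated replicates 2 and 3 were the highest libraries and irradiated replicate 1 was no higher than control replicate 2. *Lss* had 132 and 134 CPM in the controls and 78.3, 117 and 130.1 CPM in the irradiated libraries. All irradiated values were below both controls, but irradiated replicate 3 was close to them and irradiated replicate 1 far below. The log2 fold changes of these 3 genes were 0.34, 0.06 and −0.30 (adjusted p = 0.167, 0.812 and 0.325), and 0.43, 0.18 and −0.11 without irradiated replicate 1. With the length offset they were 0.30, −0.03 and 0.11 (adjusted p = 0.24, 0.92 and 0.77), so *Sqle* and *Lss* changed sign. The groups of *Lss* overlapped once the length trend was removed from the CPM values.

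*Cyp51*, the lanosterol demethylase, had 240.0 and 235 CPM in the controls and 164, 248 and 269.8 CPM in the irradiated libraries. *Msmo1*, the methylsterol oxidase, had 102 and 132 CPM and 116, 174 and 164 CPM, and *Nsdhl*, which removes the oxidized carbon, had 26.7 and 32.2 CPM and 30.1, 43.2 and 38.9 CPM. In all 3 genes irradiated replicate 1 was the lowest of the irradiated libraries, and the groups overlapped. Their log2 fold changes were −0.06, 0.37 and 0.34 (adjusted p = 0.854, 0.219 and 0.227), and 0.13, 0.53 and 0.48 without irradiated replicate 1. With the length offset they were 0.09, 0.05 and 0.07 (adjusted p = 0.81, 0.89 and 0.83), so *Cyp51* changed sign. *Hsd17b7*, the keto-sterol reductase, had 48.0 and 45.9 CPM in the controls and 26.2, 48.4 and 42.7 CPM in the irradiated libraries. Irradiated replicate 1 stood alone below the rest, and the log2 fold change was −0.26 (adjusted p = 0.447), and −0.04 without that library. With the length offset *Hsd17b7* had 0.01 (SE 0.24, adjusted p = 0.98).

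*Ebp*, the sterol isomerase, behaved differently in irradiated replicate 1. It had 7.95 and 12.6 CPM in the controls and 19.0, 17.1 and 13.5 CPM in irradiated replicates 1, 2 and 3. All irradiated values were above both controls, and irradiated replicate 1 was the highest. For *Ebp* the log2 fold change was 0.68 (SE 0.27, adjusted p = 0.0931), and 0.23 (SE 0.22, adjusted p = 0.546) with the length offset. It was 0.40 (adjusted p = 0.385) without control replicate 2 and 1.07 (adjusted p = 0.0307) without control replicate 3. *Tm7sf2*, a sterol reductase, had 6.69 and 8.07 CPM in the controls and 6.73, 8.04 and 6.08 CPM after irradiation, with overlapping groups. Its transcripts are short, 1287 bases on average, and its log2 fold change of −0.09 (adjusted p = 0.834) moved to −0.72 (SE 0.22, adjusted p = 0.0969) with the length offset. *Tm7sf2* overlaps *Vps51* on the same strand, so some reads could be shared. *Sc5d*, the sterol desaturase, and *Dhcr7*, which completes cholesterol from 7-dehydrocholesterol, had log2 fold changes of 0.06 and 0.26 (adjusted p = 0.855 and 0.315). With the length offset they were 0.21 and 0.09 (adjusted p = 0.56 and 0.77). The value of *Sc5d* turned on the controls, at −0.19 without control replicate 2 and 0.42 without control replicate 3. *Sc5d* ranged from 43.1 to 65.9 CPM, both extremes being controls, and *Dhcr7* from 40.4 to 57.6 CPM.

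The SREBP machinery held 1 gene that rose, *Insig2*, of 5 (20%, against 12.7% of all genes), and 0 that fell by edgeR, with 2 at an unadjusted p under 0.05 (against 41% of all genes). DESeq2 called *Insig2* alone of the 5 (20%, against 11.6% of all genes higher), and limma on log2(TPM + 1) called *Srebf2* lower (20%, against 19%). The median log2 fold change of the 5 genes was 0.24, and 0.12 with the length offset, with 3 of 5 above 0 in both. Without irradiated replicate 1 it was 0.48, and leaving out each other library gave 0.09 to 0.28.

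*Insig2*, which encodes a protein that holds Scap and SREBP in the endoplasmic reticulum, lies at chr1:121304353-121332589, minus strand. It had 14.2 and 16.8 CPM in the controls and 31.5, 27.7 and 24.0 CPM in irradiated replicates 1, 2 and 3. Every irradiated library was above both controls, with irradiated replicate 1 the highest. *Insig2* rose by a log2 fold change of 0.84 (SE 0.20, adjusted p = 0.0203). It was 0.66 (SE 0.17, adjusted p = 0.0691) with the length offset, the value nearest the threshold among the 30 genes in that fit. With the replicate block it was 0.74 (adjusted p = 0.135), and limma on log2(TPM + 1) gave 0.29 (adjusted p = 0.321). *Insig2* also did not pass with the effective length offset. Leaving out control replicate 2, irradiated replicate 1 or irradiated replicate 2 gave 0.74, 0.74 and 0.84 (adjusted p = 0.109, 0.0563 and 0.0585), all above 0 and short of the threshold.

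The isoforms of *Insig2* were split unevenly between the groups. Salmon gave the main coding transcript, Insig2-201, 373 and 411 reads in the controls and 702, 526 and 551 reads in the irradiated libraries. A short coding transcript, Insig2-212 of 478 bases, had 0 reads in both controls and 87.9, 34.3 and 59.6 reads in irradiated replicates 1, 2 and 3. A 0 here is an estimate by Salmon and does not show that the transcript was absent. A fragment with a retained intron, Insig2-206, held a mean of 54.8% of the gene's TPM in the controls and 6.35% in irradiated cells, on at most 19.1 reads in any library. No test was made on isoforms. The main transcript Insig2-201 held between 32.0% and 42.5% of the gene's TPM in each library. On the TPM scale *Insig2* had 29.1 and 36.4 TPM in the controls and 46.2, 33.7 and 41.3 TPM after irradiation. These groups overlapped.

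*Insig1*, the other anchor and itself a target of SREBP, had 183 and 189 CPM in the controls and 139, 257 and 263 CPM in the irradiated libraries. The controls were close together, irradiated replicate 1 lay below them and irradiated replicates 2 and 3 above. *Insig1* had a log2 fold change of 0.24 (SE 0.26, adjusted p = 0.527), and 0.48 (adjusted p = 0.0914) without irradiated replicate 1. With the length offset it was 0.12 (SE 0.25, adjusted p = 0.796). *Scap*, the escort, had 154 and 124 CPM in the controls and 111, 106 and 122 CPM after irradiation. The irradiated values were all lower, irradiated replicate 3 by little. Its log2 fold change was −0.30 (SE 0.16, adjusted p = 0.18), and −0.09 (SE 0.13, adjusted p = 0.695) with the length offset. With the GC content offset *Scap* passed as lower, at −0.62 (adjusted p = 0.0333), and without control replicate 2 it was −0.12 (adjusted p = 0.704).

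*Srebf2* lies at chr15:82147181-82205379, plus strand. It had 624 and 563 CPM in the controls and 454, 411 and 502 CPM in the irradiated libraries. All irradiated values were below both controls, and irradiated replicate 2 was the lowest. This gave a log2 fold change of −0.38 (SE 0.16, adjusted p = 0.109), and −0.07 (SE 0.12, adjusted p = 0.765) with the length offset. The GC content offset gave −0.65 (adjusted p = 0.0301) and log2(TPM + 1) with limma gave −0.69 (adjusted p = 0.034).

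*Srebf1*, at chr11:60199089-60222581, minus strand, encodes SREBP-1a and SREBP-1c from separate first exons. It had 84.5 and 116 CPM in the controls and 91.9, 153 and 147 CPM in the irradiated libraries. The groups overlapped, with irradiated replicates 2 and 3 the highest and irradiated replicate 1 between the controls. The log2 fold change was 0.39 (SE 0.25, adjusted p = 0.271), and 0.50 (SE 0.24, adjusted p = 0.223) with the length offset. Without irradiated replicate 1 it was 0.59 (adjusted p = 0.0887), and without control replicate 2 it was 0.19 (adjusted p = 0.686). The transcript Srebf1-201, with its start codon at chr11:60220541-60220543, begins with the upstream exon of SREBP-1a. Salmon gave it 18.5 and 21.6 TPM in the controls and 20.4, 26.9 and 27.8 TPM in the irradiated libraries. Srebf1-207, with its start codon at chr11:60210352-60210354, begins with the exon of SREBP-1c and had 17.1 and 29.8 TPM in the controls and 17.7, 28.6 and 32.1 TPM after irradiation. By Salmon's estimate both transcripts had like levels, with a ratio of Srebf1-201 to Srebf1-207 of 1.08 and 0.727 in the controls. It was 1.15, 0.942 and 0.867 in the irradiated libraries. They also differ at their 3' ends, and other *Srebf1* transcripts had reads, so the ratio of SREBP-1a to SREBP-1c is uncertain. The ratios of the groups overlapped, and control replicate 3 had the lowest.

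*Stard4*, on chromosome 18, encodes a soluble carrier that moves sterols between membranes. It had 279 and 248 CPM in the controls and 198, 234 and 262 CPM in the irradiated libraries. The groups overlapped, and irradiated replicate 1 was the lowest. Its log2 fold change was −0.19 (SE 0.17, adjusted p = 0.432), and 0.19 (SE 0.14, adjusted p = 0.416) with the length offset. Limma on log2(TPM + 1) called it lower, at −0.57 (adjusted p = 0.0434).

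Fatty acid synthesis held both genes that fell. Of its 6 genes, 2 were lower (33.3%, against 13% of all genes) and 0 higher by edgeR, with 3 (50%) at an unadjusted p under 0.05, against 41% of all genes. DESeq2 and limma on log2(TPM + 1) each called *Elovl6* lower as well (50%, against 10.5% and 19% of all genes), and 0 higher. All 6 had a log2 fold change below 0, with a median of −0.72, and their median transcript was 5514 bases long. With the length offset the median was −0.31 and 2 of 6 lay above 0. Without irradiated replicate 1 it was −0.41, with 1 of 6 above 0 and 0 passing, and leaving out each other library gave −1.01 to −0.58.

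*Acaca*, at chr11:84129672-84401651, plus strand, encodes acetyl-CoA carboxylase, which makes malonyl-CoA and commits carbon to fatty acids. It had 665 and 357 CPM in control replicates 2 and 3 and 170.1, 166 and 248 CPM in irradiated replicates 1, 2 and 3. Every irradiated library was below both controls, and the controls themselves differed widely, replicate 2 being far above replicate 3. The fitted log2 fold change of *Acaca* was −1.39 (SE 0.28, adjusted p = 0.0131). It was −0.54 (SE 0.19, adjusted p = 0.116) with the length offset and −1.26 (adjusted p = 0.0493) with the replicate block. Without control replicate 2 it was −0.85 (adjusted p = 0.0769), and without irradiated replicate 1 it was −1.30 (adjusted p = 0.0515). Most of its reads belonged to Acaca-201, a transcript of 9026 bases, which had 17611 and 8826 reads in the controls and 4082, 3437 and 6077 reads in the irradiated libraries. A transcript of 431 bases, Acaca-206, made up 38.8% of the control TPM from 393 and 115 reads, so the TPM level of *Acaca* given above is uncertain. The near-identical pseudogene *Gm5182* held at most 50 reads in any library.

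*Fasn*, at chr11:120805846-120824547, minus strand, encodes fatty acid synthase, which builds palmitate from malonyl-CoA. It had 1452 and 812 CPM in the controls and 388, 459.8 and 570.5 CPM in the irradiated libraries. As for *Acaca*, every irradiated library was below both controls and control replicate 2 was far above control replicate 3. The fitted log2 fold change of *Fasn* was −1.26 (SE 0.26, adjusted p = 0.0141). It was −0.39 (SE 0.19, adjusted p = 0.218) with the length offset and −1.08 (adjusted p = 0.0772) with the replicate block. Without control replicate 2 it was −0.76 (adjusted p = 0.0844), and without irradiated replicate 1 it was −1.14 (adjusted p = 0.0541). *Fasn* and *Acaca* have the longest transcripts of the 30 genes, 8757 and 8610.0 bases on average. Control replicate 2, the library with the longest mean transcript, was also the highest for both.

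*Elovl6*, which lengthens palmitate to stearate, had 221 and 176 CPM in the controls and 86.6, 125 and 152 CPM in the irradiated libraries. All irradiated values were below both controls, with irradiated replicate 1 the lowest. For *Elovl6* the log2 fold change was −0.71 (SE 0.23, adjusted p = 0.0547), and −0.24 (SE 0.20, adjusted p = 0.474) with the length offset. *Acly*, which splits citrate into cytosolic acetyl-CoA for both branches, had 520.2 and 425 CPM in the controls and 350.0, 450.3 and 489 CPM after irradiation. The groups overlapped, with irradiated replicate 1 the lowest. The log2 fold change was −0.14 (SE 0.19, adjusted p = 0.629), 0.10 (SE 0.16, adjusted p = 0.724) with the length offset and −0.01 without irradiated replicate 1, within a range of −0.26 to 0.04 as each library was left out.

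For both desaturases 1 library lay far below the rest. *Scd1*, at chr19:44394455-44407879, minus strand, had 207 and 186 CPM in the controls and 35.4, 146 and 174 CPM in irradiated replicates 1, 2 and 3. All irradiated values were lower, irradiated replicates 2 and 3 by less and irradiated replicate 1 by far. The log2 fold change was −0.73 (SE 0.51, adjusted p = 0.316), and −0.30 (adjusted p = 0.271) without irradiated replicate 1. With the length offset it was −0.39 (SE 0.51, adjusted p = 0.656). *Scd2*, its neighbor at chr19:44293674-44306864, plus strand, had 1466 and 1577 CPM in the controls and 615, 1500.3 and 1679 CPM in the irradiated libraries. Irradiated replicate 1 was again far below, while the other irradiated libraries alternated with the controls. Its log2 fold change was −0.27 (SE 0.36, adjusted p = 0.617), and 0.06 (adjusted p = 0.841) without irradiated replicate 1. With the length offset and all libraries it was 0.17 (SE 0.36, adjusted p = 0.79), also on the other side of 0. *Scd1* and *Scd2* share 623 bases in matches of at least 95% identity, the highest being 95.5%, so a part of their reads could be exchanged.

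The genes differed by transcript length within the pathway. Across the 30 genes, the Spearman correlation of transcript length with log2 fold change was −0.853, and −0.569 across all 14106 genes tested. All points share the same 5 libraries, and genes are not independent replicates. Of the 11 genes with transcripts under 2500 bases, 10 had a log2 fold change above 0, with a median of 0.56, against 0.47 for all genes of that length. From 2500 to 4500 bases, 5 of 11 lay above 0. At 4500 bases or more, 0 of 8 lay above 0, with a median of −0.55 against −0.58 for all genes of that length. Both the short and the long genes thus lay close to other genes of their length. With the length offset the correlation was −0.218 across the 30 genes and −0.037 across all genes tested. Of the mevalonate genes 5 of 7 were under 2500 bases, and of the fatty acid genes 5 of 6 were at 4500 bases or more. Role and transcript length thus largely went together in these arms. The other arms were mixed, from 1287 bases (*Tm7sf2*) to 5190 (*Lss*) between squalene and cholesterol. The SREBP machinery ran from 2449 bases (*Insig2*) to 4670 (*Srebf2*).

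**Figure D3:**
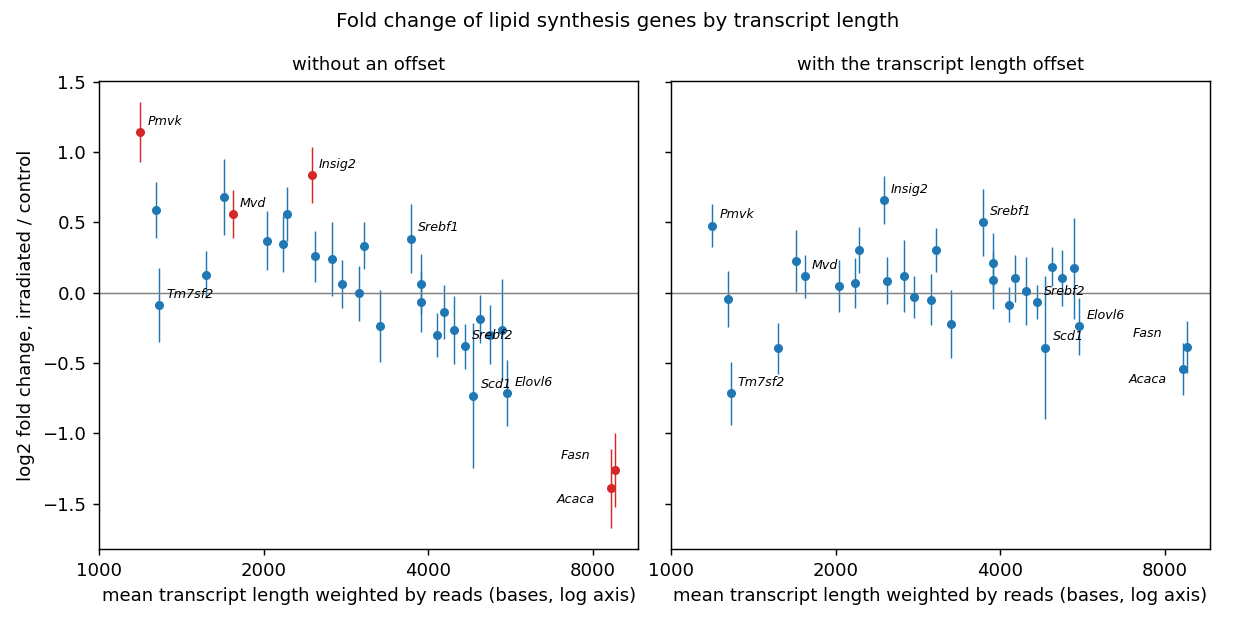
Log2 fold change of irradiated against control cells for each of the 30 genes (points, with bars of 1 standard error from edgeR) against mean transcript length on a log axis, without an offset on the left and with the transcript length offset on the right. Red points had an adjusted p under 0.05. The slope on the left (Spearman −0.853 across the 30 genes) is much flatter on the right (−0.218), where 0 of the 30 points are red.

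The promoters were searched for the letters that SREBP and its partners are known to bind. RefSeq windows (GRCm38.p6) from 250 bases before to 50 bases after a gene's start were found for 24 of the 30 genes, 32 windows in all, and for 27025 genes with 32851 windows in all. There were none for *Fdps*, *Fdft1*, *Sqle*, *Stard4*, *Scd1* and *Scd2*. Motifs were searched on both strands, and a match is a description of letters, not a site. The sterol regulatory element TCACNCCAC was found in 1 of 32 windows (3.12%), that of *Hmgcs1*, against 1.24% of all windows. The shorter TCACNCCA, chosen after the sequences were seen and contained in the longer form, was found in 3 windows (9.38%), of *Hmgcs1*, *Msmo1* and *Srebf2*, against 4.36% of all. The E-box CACGTG, which SREBP can also bind, was found in 6 windows (18.8%), of *Hsd17b7*, *Sc5d*, *Dhcr7*, *Scap* and *Insig1*, against 7.15% of all. Both *Scap* windows, which overlap, held it. Counted by gene, it was found in 5 of 24 (20.8%), against 8.09% of all genes with a window. CCAAT, the letters bound by NF-Y, a partner of SREBP, was found in 21 windows (65.6%) against 37.4% of all. GGGCGG, the letters bound by the partner Sp1, was found in 24 windows (75%) against 35.7% of all. Base composition was not matched between these windows and all windows.

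The windows of both factor genes are shown because SREBP-2 and SREBP-1c can act on their own genes, that of *Hmgcs1* because it holds the only 9-letter match, chosen after the match was seen, and that of *Acaca* because this gene had the smallest adjusted p among the genes that fell. Capitals mark the last 4 of these motifs on either strand. The windows are *Srebf2* at chr15:82147019-82147318 (plus strand), *Srebf1* at chr11:60220578-60220877 for Srebf1-201 and at chr11:60210422-60210721 for Srebf1-207 (both minus strand), *Hmgcs1* at chr13:119690101-119690400 (plus strand) and *Acaca* at chr11:84195188-84195487 (plus strand).
Srebf2: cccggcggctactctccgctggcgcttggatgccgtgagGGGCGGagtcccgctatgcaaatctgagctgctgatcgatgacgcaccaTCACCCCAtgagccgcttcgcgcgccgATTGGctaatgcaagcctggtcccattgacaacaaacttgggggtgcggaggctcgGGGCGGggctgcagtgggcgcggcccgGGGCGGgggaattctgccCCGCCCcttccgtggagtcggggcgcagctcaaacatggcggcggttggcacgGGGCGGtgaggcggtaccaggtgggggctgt
Srebf1 for Srebf1-201: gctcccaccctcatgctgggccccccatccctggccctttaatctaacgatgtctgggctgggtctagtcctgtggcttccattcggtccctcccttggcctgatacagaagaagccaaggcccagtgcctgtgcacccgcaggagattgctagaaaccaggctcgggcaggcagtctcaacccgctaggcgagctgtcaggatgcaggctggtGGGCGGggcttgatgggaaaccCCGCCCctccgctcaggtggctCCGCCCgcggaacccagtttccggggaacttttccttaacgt
Srebf1 for Srebf1-207: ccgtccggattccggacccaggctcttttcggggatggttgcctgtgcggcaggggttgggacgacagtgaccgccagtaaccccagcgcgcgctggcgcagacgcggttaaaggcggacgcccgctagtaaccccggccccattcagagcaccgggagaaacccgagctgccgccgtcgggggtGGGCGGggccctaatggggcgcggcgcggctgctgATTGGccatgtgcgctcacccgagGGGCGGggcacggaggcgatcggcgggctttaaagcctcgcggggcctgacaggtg
Hmgcs1: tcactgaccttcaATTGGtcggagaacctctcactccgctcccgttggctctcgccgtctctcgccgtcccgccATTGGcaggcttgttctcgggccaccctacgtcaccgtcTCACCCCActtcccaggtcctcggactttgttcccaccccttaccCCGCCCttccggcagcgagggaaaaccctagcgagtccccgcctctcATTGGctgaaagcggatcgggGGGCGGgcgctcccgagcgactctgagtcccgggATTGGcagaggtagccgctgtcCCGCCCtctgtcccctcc
Acaca: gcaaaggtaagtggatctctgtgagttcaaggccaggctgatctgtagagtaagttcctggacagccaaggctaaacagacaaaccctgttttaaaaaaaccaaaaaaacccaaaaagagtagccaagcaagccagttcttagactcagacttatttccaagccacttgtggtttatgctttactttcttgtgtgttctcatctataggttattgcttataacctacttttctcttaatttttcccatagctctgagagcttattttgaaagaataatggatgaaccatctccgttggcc
The *Srebf2* window held TCACNCCA at base 89 and a reversed CCAAT at base 116. The window of Srebf1-201 held GGGCGG 3 times on either strand and none of the other motifs. Another *Srebf1* window, at chr11:60222532-60222831 for the noncoding Srebf1-204, which had at most 14.8 reads in any library, held CCAAT at base 85 and is not shown. The window of Srebf1-207 held GGGCGG at bases 186 and 245 and a reversed CCAAT at base 221. In *Hmgcs1* the element began at base 114, between reversed CCAAT matches at bases 75 and 206. The *Acaca* window, at the start of its most-read transcript, held none of the 5 motifs. Other *Acaca* transcripts with reads begin upstream, such as Acaca-204 at chr11:84129672 and Acaca-206 at chr11:84179831. No window covered those starts, so whether promoters there hold the motifs was not tested. The 2 windows of *Pmvk*, the gene with the smallest adjusted p among those that rose, lay 453 and 4577 bases from the start of Pmvk-201 and are not shown.

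Around the pathway, 7 lists with 116 genes, of which 108 were tested, were read in the same way, against the same 12.7% of all genes higher and 13% lower by edgeR, 11.6% and 10.5% by DESeq2 and 4.91% and 19% by limma, and against 41% at an unadjusted p under 0.05 by edgeR. By edgeR, 3 of 14 genes that cleave, carry or degrade SREBP and its partners were higher and 0 lower, with 3 at an unadjusted p under 0.05. DESeq2 gave 3 and 0, and limma on log2(TPM + 1) gave 1 and 2. *Sar1b*, a GTPase of the vesicles that carry Scap to the Golgi, had 21.4 and 16.9 CPM in the controls and 35.8, 42.3 and 30.8 CPM after irradiation, with no overlap. Its log2 fold change was 0.93 (SE 0.20, adjusted p = 0.0166), or 0.24 (SE 0.20, adjusted p = 0.462) with the length offset. *Ube2g2* and *Ufd1*, which act in the degradation of proteins of the endoplasmic reticulum such as Insig, had log2 fold changes of 0.66 and 0.76 (adjusted p = 0.0191 and 0.0319). With the length offset these were 0.33 and 0.36 (adjusted p = 0.147 and 0.205). The median of this list was 0.08, and 0.19 with the length offset.

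Of 10 genes of other isoprenoid branches 0 passed by edgeR, with 1 at an unadjusted p under 0.05. DESeq2 called 1 higher, and limma on log2(TPM + 1) called 1 lower. *Rce1* and *Zmpste24*, proteases that trim prenylated proteins, had the smallest p, with log2 fold changes of 0.64 and −0.33 (adjusted p = 0.0535 and 0.173). With the length offset these were 0.02 and −0.28 (adjusted p = 0.959 and 0.255). Of 18 genes of sterol export, storage and movement, 1 was higher and 4 were lower by edgeR, with 8 at an unadjusted p under 0.05. Without irradiated replicate 1, 2 or 3 in turn, 1, 0 and 0 were higher and 0, 0 and 4 lower. Of all genes, 5.95%, 4.91% and 11.2% were higher and 6.5%, 5.98% and 10.5% lower in those fits. DESeq2 gave 2 and 5, and limma on log2(TPM + 1) gave 0 and 3. *Vldlr* and *Lrp8*, receptors for lipoproteins, had log2 fold changes of −0.70 and −0.62 (adjusted p = 0.0191 and 0.0396). With the length offset these were −0.16 and −0.22 (adjusted p = 0.47 and 0.405). *Npc1*, which releases cholesterol from lysosomes, had −0.57 (adjusted p = 0.0358), and *Stard3*, a sterol transfer protein of late endosomes, rose by 0.67 (adjusted p = 0.0398). With the length offset these were −0.15 and 0.33 (adjusted p = 0.494 and 0.2345).

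The supply of acetyl-CoA and NADPH had 1 of 7 genes higher and 0 lower by edgeR, with 1 at an unadjusted p under 0.05, the same counts by DESeq2, and 0 by limma on log2(TPM + 1). The gene was *Slc25a1*, the carrier that exports mitochondrial citrate for *Acly*, with 24.9 and 33.7 CPM in the controls and 55.6, 70.7 and 60.1 CPM in the irradiated libraries. The groups did not overlap, and its log2 fold change was 1.08 (SE 0.19, adjusted p = 0.0101), or 0.59 (SE 0.15, adjusted p = 0.0614) with the length offset. Of 23 tested genes of elongation, desaturation and activation (25 listed), 1 was higher and 1 lower by edgeR, with 7 at an unadjusted p under 0.05. DESeq2 gave 4 and 1, and limma on log2(TPM + 1) gave 0 and 3. *Hsd17b12*, a reductase of fatty acid elongation, had a log2 fold change of 0.63 (adjusted p = 0.0222), and *Acsl4*, which activates polyunsaturated fatty acids, had −0.79 (adjusted p = 0.0147). With the length offset these were 0.25 and −0.39 (adjusted p = 0.219 and 0.1395).

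Of 14 tested genes of glycerolipids and lipid droplets (18 listed), 2 were higher and 0 lower, with 4 at an unadjusted p under 0.05. DESeq2 gave 3 and 0, and limma on log2(TPM + 1) gave 1 and 2. *Hilpda*, a lipid droplet protein that restrains fat breakdown, had 2.03 and 2.29 CPM in the controls and 5.85, 11.5 and 6.56 CPM after irradiation. The groups did not overlap and irradiated replicate 2 was the highest, with a log2 fold change of 1.88 (SE 0.39, adjusted p = 0.0138), or 1.14 (SE 0.32, adjusted p = 0.0811) with the length offset. *Dgat2*, which completes triglycerides, had 0.66 (adjusted p = 0.0421), or 0.42 (adjusted p = 0.2035) with the length offset. Of 22 tested genes of fatty acid oxidation (24 listed), 8 were higher and 0 lower, with 12 at an unadjusted p under 0.05 and a median of 0.56. Without irradiated replicate 1, 2 or 3 in turn, 2, 1 and 7 were higher and 0 lower. Of all genes, 5.95%, 4.91% and 11.2% were higher in those fits. DESeq2 gave 10 and 0, and limma on log2(TPM + 1) gave 2 and 0. Smallest in adjusted p were *Echs1*, *Eci1*, *Etfb* and *Acads*, enzymes and electron carriers of the mitochondrial pathway, with log2 fold changes of 0.86, 1.00, 0.80 and 0.81 (adjusted p = 0.0131, 0.0177, 0.0191 and 0.022). With the length offset these genes had 0.37, 0.32, 0.05 and 0.39 (adjusted p = 0.12, 0.265, 0.889 and 0.244). Their list has a median transcript of 1958 bases, and its median log2 fold change of 0.56 stood against 0.47 for all genes under 2500 bases, and was 0.16 with the length offset.

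With the length offset 0 genes of these 7 lists passed by edgeR, while 4, 2, 1, 1, 2, 3 and 2 genes, in the order given, had an unadjusted p under 0.05. In that fit 1.75% of all genes were higher and 2.16% lower, with 27% at an unadjusted p under 0.05. Under the replicate block, of the genes named from these lists, *Slc25a1* and *Hilpda* passed, at 1.17 and 2.01 (adjusted p = 0.027 and 0.0234). Fatty acid synthesis and oxidation had medians of opposite sign, −0.72 and 0.56, at median transcript lengths of 5514 and 1958 bases, and with the length offset the medians were smaller, −0.31 and 0.16. Without irradiated replicate 1 they were −0.41 and 0.55.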

How the data were processed

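The authors quantified reads with Salmon 0.8.2 and deposited, for each transcript, expected counts (estimated reads, not scaled) and TPM. The deposited transcript lengths and effective lengths are in bases. The submitters name DESeq2 1.22.2. The strandedness and the library kit are not given in the labels.

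Of 113116 transcripts, 112762 (99.69%) matched GENCODE M21 on GRCm38. Expected counts were summed to 35056 genes and rounded. edgeR 4.0.16 in R 4.3.3 (filterByExpr, TMM, quasi-likelihood test, Benjamini-Hochberg over all genes tested) compared 3 irradiated with 2 control libraries. SEs are the absolute log2 fold change over the square root of F. The transcript length offset is a spline with 5 degrees of freedom on each gene's mean length weighted by reads. This definition replaced the length of the most abundant transcript after results had been seen. The alternatives were DESeq2 1.42.0, limma 3.58.1 on log2(TPM + 1), other factors, filters, thresholds and offsets, a replicate block and each library left out. The tests were also run on simulated data, and no value in this text comes from those runs. Log2 ratios between libraries used a pseudocount of 0.5 CPM. Near-identical genes were searched with blastn 2.17.0 at 95% identity. Tables and plots were made in Python 3.11.15.

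All 30 genes are named. Of each related list, at most the 4 genes with the smallest adjusted p that passed are named, or the 2 with the smallest p where none passed. The members and lists were chosen with earlier results of these data known. The single-cell samples were not used.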

Additional observations from a re-analysis of the deposited data

How the results depend on the processing

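The counts of 3 higher and 2 lower genes changed with the processing, and the cause was not tested. DESeq2 gave 5 higher and 3 lower (16.7% and 10%, against 11.6% and 10.5% of 20523 genes). No filter on low counts gave 6 higher and 4 lower (20% and 13.3%, against 12.3% and 9.64% of 20526 genes). Both bases are larger than the 14106 genes of the main fit, so these shares are not like for like. The GC content offset gave 2 higher and 4 lower (6.67% and 13.3%, against 11.7% and 12.3% of all genes). An adjusted p under 0.1 gave 6 higher and 3 lower (20% and 10%, against 19.2% and 18.6%). Limma on log2(TPM + 1) gave 1 higher and 5 lower (3.33% and 16.7%, against 4.91% and 19%), with a median of −0.29. The study's thresholds, with a log2 fold change past 1.5, left 0 and 0, against 1.63% and 1.9% of all genes. The transcript length offset left 0 and 0 by edgeR, against 1.75% and 2.16% of all genes, with 4 (13.3%, against 27%) at an unadjusted p under 0.05. The offset from each gene's most abundant transcript, chosen after seeing the data, gave 1 and 1 (*Insig2* and *Acaca*; 3.33% each, against 3.56% and 4.44%). Leaving out 1 library gave 0 to 4 higher and 0 to 3 lower (against 0.65% to 15.1% and 1.2% to 13.4% of all genes), and together with the length offset, chosen after seeing the data, 0 to 0 higher and 0 to 1 lower (against 0% to 5.49% and 0% to 4.31%). RLE, upper-quartile and library-total scaling, protein-coding genes alone and the effective length offset kept both counts within 1.5 times. The genes called were not always the same. With the effective length offset *Fdps* passed as higher and *Insig2* did not.

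The replicate block gave 1 higher and 1 lower (3.33% each, against 4.27% and 3.5%), and with the length offset 0 and 0 (against 0% and 0.00709%), with 3 of the 30 (10%, against 14.3%) at an unadjusted p under 0.05. *Etfb* reached −0.0044 there, against 0.80 without block and offset. A block with the numbers 2 and 3 crossed in the irradiated group, chosen after seeing the data, gave 12 higher and 5 lower (40% and 16.7%, against 21.5% and 18.9% of all genes).

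Over 23 settings for each of the 30 genes (690 values), 508 kept their direction and side of the threshold, 56 no longer passed, 22 newly passed, and 104 changed sign without passing, in 21 genes. *Acaca* passed in 15 of the 23 settings, *Pmvk* in 14, *Fasn* in 12, *Insig2* in 10 and *Mvd* in 8. *Pmvk* ran from 0.43 to 1.27, *Insig2* from 0.29 to 0.98, *Mvd* from 0.03 to 0.68, *Acaca* from −1.77 to −0.26 and *Fasn* from −1.60 to −0.15. The precision is limited by 2 control libraries and by depth, where the lowest count of any of the 30 genes was 167 reads in a library.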
